A study of Homo sapiens with 4 samples.

Results

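Eph receptors and their ephrin ligands were examined in a colon cancer epithelial cell line grown without or with TGF-β1. The genes were the class A receptors EPHA1, EPHA2 and EPHA4, the class B receptors EPHB2, EPHB3 and EPHB4, the class A ligands EFNA1 and EFNA4 and the class B ligands EFNB1 and EFNB2. All probe sets whose only annotated gene symbol was one of these 10 were taken, which gave 18 of 54613 probe sets and 9 of 19775 genes. No probe set was matched to EPHB2 in this way, so EPHB2 is not analysed here.

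The cells, LSTGFBR2, carry the type II TGF-β receptor, TGFBR2, under a doxycycline-inducible construct. Of the 4 arrays, 2 came from cells labelled as having no treatment and 2 from cells given 5 ng/ml human recombinant TGF-β1 for 16 hours. The treatment protocol, which is the same text for all arrays, adds doxycycline at 1 µg/ml from seeding, and no label tells which arrays received it. TGFBR2 was 9.44 and 9.55 without TGF-β1 and 14.70 and 14.92 with it by 1 of its 2 probe sets, so the groups differ in that signal as well as in TGF-β1. Whether the construct is carried by 1 clone or by a pool of cells is not given in the labels. Replicate arrays correlated at r = 0.996 across genes in both groups. All 10 colon epithelial markers had a mean log2 value of 7 or more, and their summed level ran from 16.19 to 16.32 (log2) in untreated and from 16.25 to 16.40 in TGF-β1 arrays. Summed levels of the 6 fibroblast markers ran from 10.18 to 10.56 and from 9.98 to 10.17, of the 5 endothelial markers from 8.59 to 8.65 and from 8.62 to 8.78, and of the 4 leukocyte markers measured from 8.13 to 8.18 and from 8.03 to 8.12. A mean of 7 or more was also reached by 3 of the fibroblast, 1 of the endothelial and 1 of the leukocyte markers. None of these 15 markers was called by the test used below, and of the epithelial ones 1 was called lower. At an unadjusted limma p under 0.05 there were 2 fibroblast and 3 epithelial markers. The part of any of these markers in the results was not tested.

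Eph receptors form the largest family of receptor tyrosine kinases, and their ligands are themselves held on the surface of neighbouring cells. Class A ephrins are anchored by a lipid and class B ephrins span the membrane, so that contact can signal into both cells. In the intestinal crypt, EPHB2 and EPHB3 are Wnt target genes of stem and progenitor cells, ephrin-B ligands are found towards the crypt mouth, and the opposed gradients keep the cells in their places. EPHA2 is known in epithelia as a receptor of ephrin-A1 that acts on cell junctions and motility.

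The class A receptor genes EPHA2 and EPHA4 rose and the class B receptor gene EPHB3 fell in the TGF-β1 arrays. The values of EFNA1 and EFNA4, the class A ligand genes among those listed above, overlapped between the groups. EPHA2 was 1.97-fold higher, EPHA4 2.03-fold higher and the class B ligand gene EFNB2 1.53-fold higher, and EPHB3 was 2.15-fold lower. These 4 of the 9 genes passed limma's moderated test at a Benjamini-Hochberg adjusted p under 0.05, against 3.34% of all 19775 genes. In the upward direction 3 of 9 passed against 1.87% of all genes, and in the downward direction 1 of 9 against 1.47%. The median log2 fold change of the 9 genes was 0.41, against -0.0036 over all genes. Both groups lay apart without overlap for 6 of the 9 genes, against 44.4% of all genes. These genes, and the gene lists below, were chosen with earlier results of these data known. The shares here and below are therefore descriptive. All 9 genes also had a mean log2 value of 7 or more, as did 11342 of all genes. Of those, fitted alone, 910 passed, with EPHA1 in addition to the 4. Values are RMA values on the log2 scale, on which a difference of 1 is a 2-fold change, and each gene is represented by its brightest probe set unless another is named. Fold changes are TGF-β1 over untreated, with limma's moderated standard error (SE). The array reads the average of a culture, so fewer cells with a transcript and less of it per cell cannot be told apart. Levels of different probe sets are not compared, since each binds its own transcript with its own strength.

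**Figure D1:**
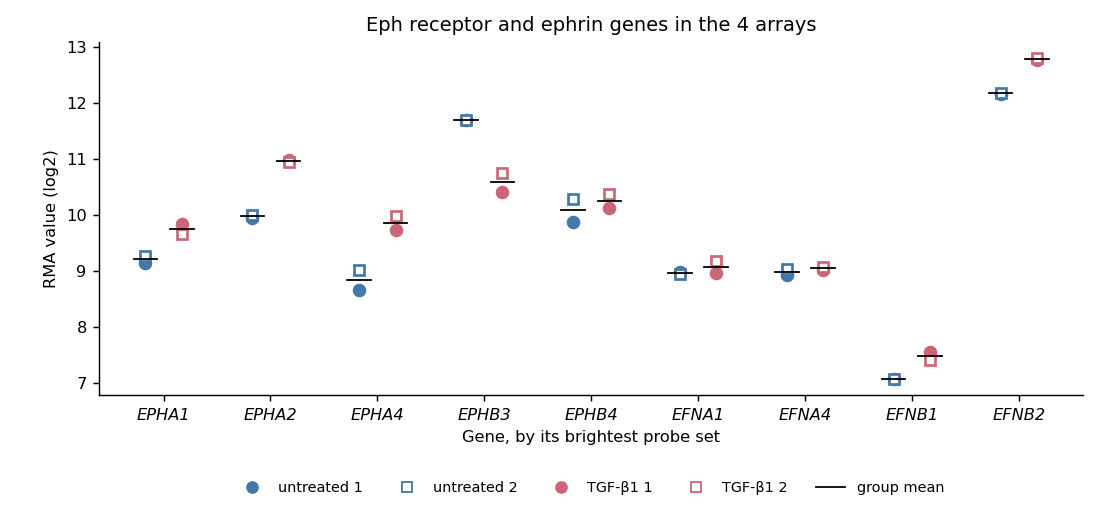
RMA value (log2, vertical axis) of each of the 9 genes in each array, with untreated arrays in blue and TGF-β1 arrays in red, and a line at each group mean. EPHA1, EPHA2, EPHA4, EFNB1 and EFNB2 lie higher in both TGF-β1 arrays, EPHB3 lies lower in both, and the groups of EPHB4, EFNA1 and EFNA4 overlap.

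The sequence just upstream of the transcription start is shown for the 4 genes that passed, since they moved in both directions. Each is the 250 bases before the start in RefSeq on build GRCh38.p14, read 5′ to 3′ on the gene's strand. EPHA2 is at chr1:16156070-16156319 (minus strand), EPHA4 at chr2:221574203-221574452 (minus strand, the more upstream of its 2 starts), EPHB3 at chr3:184561535-184561784 (plus strand) and EFNB2 at chr13:106535663-106535912 (minus strand). Capitals mark 4 motifs searched on both strands, namely CAGAC (a SMAD box), TGANTCA (an AP-1 site), CTTTG (the core of a TCF site) and CAGGTG (an E-box of the kind that Snail factors bind), and no 2 marked matches overlap.
EPHA2: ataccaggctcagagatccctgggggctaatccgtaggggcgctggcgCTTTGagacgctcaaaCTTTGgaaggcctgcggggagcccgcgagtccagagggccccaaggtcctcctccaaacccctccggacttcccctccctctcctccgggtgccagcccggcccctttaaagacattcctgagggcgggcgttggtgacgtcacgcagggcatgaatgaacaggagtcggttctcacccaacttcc
EPHA4: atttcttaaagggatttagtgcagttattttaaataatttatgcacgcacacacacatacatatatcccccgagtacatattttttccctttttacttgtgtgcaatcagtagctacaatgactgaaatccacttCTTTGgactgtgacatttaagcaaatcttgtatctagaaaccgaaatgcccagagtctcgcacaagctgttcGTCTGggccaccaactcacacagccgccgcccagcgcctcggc
EPHB3: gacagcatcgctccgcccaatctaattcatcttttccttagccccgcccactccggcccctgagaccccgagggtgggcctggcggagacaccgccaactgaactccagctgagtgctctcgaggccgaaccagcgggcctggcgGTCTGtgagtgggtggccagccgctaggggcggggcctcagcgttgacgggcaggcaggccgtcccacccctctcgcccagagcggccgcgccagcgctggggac
EFNB2: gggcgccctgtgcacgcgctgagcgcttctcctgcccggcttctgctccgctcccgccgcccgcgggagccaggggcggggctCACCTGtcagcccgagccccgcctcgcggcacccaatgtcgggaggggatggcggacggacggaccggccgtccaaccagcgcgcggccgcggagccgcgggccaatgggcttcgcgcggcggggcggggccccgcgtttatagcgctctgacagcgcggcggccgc
EPHA2 holds 2 TCF cores and no SMAD box in these bases, and EPHA4 holds 1 SMAD box and 1 TCF core. The window of the other EPHA4 start, not shown, holds 1 SMAD box and no TCF core. EPHB3, the gene that fell, holds 1 SMAD box and EFNB2 holds 1 E-box. Neither EPHB3 nor EFNB2 has a TCF core in this stretch. Among all 35116 RefSeq windows of this length, 38.0% hold the SMAD box, 42.1% the TCF core, 17.5% the E-box and 6.6% the AP-1 site. All 10 genes, EPHB2 included, have a window, and EPHA4 and EPHB2 have 2. Counted by window, as for the shares above, 5 of 12 hold a SMAD box, 4 a TCF core, 4 an E-box and 0 an AP-1 site. Counted once per gene, 4 of 10 hold a SMAD box, 4 a TCF core, 3 an E-box and 0 an AP-1 site. A match or its lack describes these letters only and says nothing of binding.

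EPHA2, the class A receptor best known in epithelia, has 1 probe set. It was 9.95 and 10.00 without TGF-β1 and 10.98 and 10.94 with it. Both TGF-β1 arrays lay above both untreated arrays, with 0.94 between the nearest arrays of the 2 groups and at most 0.049 between replicates. The change was 0.98 ± 0.097 on the log2 scale (SE, n = 2 per group, 95% interval 0.74 to 1.22, limma adjusted p = 0.00851). By size of rise EPHA2 ranked 207 among all genes.

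EPHA4, a receptor that binds ephrins of both classes, has 5 probe sets. The brightest was 8.66 and 9.01 without TGF-β1 and 9.74 and 9.98 with it. The groups did not overlap, although the untreated replicates differed by 0.35, and the change was 1.02 ± 0.154 on the log2 scale (SE, n = 2 per group, 95% interval 0.65 to 1.40, limma adjusted p = 0.0294). Both of the next brightest EPHA4 probe sets gave nearly the same change. The second in brightness read 8.45 and 8.84 against 9.65 and 9.60, a log2 fold change of 0.98, and the third read 8.33 and 8.82 against 9.51 and 9.67, a log2 fold change of 1.01. The fourth read 8.18 and 8.40 against 9.05 and 8.62, a log2 fold change of 0.54. The fifth was dim in every array (4.75 to 4.88) and gave 0.09. All 5 were higher in both TGF-β1 arrays, the fifth by only 0.052 between the nearest arrays. Groups without overlap, in either direction, are seen in 40.8% of all probe sets. None of the 5 passed when p-values were adjusted over all 54613 probe sets (limma adjusted p = 0.0567 to 0.832), where fewer features pass.

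EPHA1, the receptor for which the family is named, was 9.14 and 9.28 without TGF-β1 and 9.84 and 9.67 with it by its brightest probe set. The groups did not overlap, and the log2 fold change of 0.54 ± 0.114 (SE, n = 2 per group, 95% interval 0.27 to 0.82) missed the threshold (limma adjusted p = 0.0659). It passed with genes of a mean log2 value under 7 left out (0.0437) and with arrays centred on housekeeping genes (0.0393), while with its 3 probe sets averaged the change was 0.23 (0.293). The other EPHA1 probe sets were dimmer and differed in sign. One read 6.0 in both untreated arrays against 6.40 and 6.21, and the other read 6.10 and 5.94 against 5.94 and 5.81.

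EPHB3, a crypt receptor for ephrin-B ligands, fell. Its brighter probe set was 11.69 and 11.70 without TGF-β1 and 10.41 and 10.76 with it. The second read 11.06 and 11.29 against 10.01 and 10.10. On both, the TGF-β1 arrays lay below the untreated ones, by 0.93 and 0.95 between the nearest arrays. The change by the brighter probe set was -1.11 ± 0.137 on the log2 scale (SE, n = 2 per group, 95% interval -1.44 to -0.77, limma adjusted p = 0.0176), and by size of fall EPHB3 ranked 44 among all genes. By the other it was -1.12 ± 0.124. Adjusted over all probe sets, both passed (limma adjusted p = 0.0375 and 0.0259).

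EPHB4, a receptor for ephrin-B2 best known from veins, did not pass the test. It was 9.88 and 10.28 without TGF-β1 and 10.12 and 10.37 with it by its brighter probe set. The replicates differed from each other by more than the group means did, and the log2 fold change of 0.16 had a 95% interval of -0.24 to 0.56 (limma adjusted p = 0.739). Its other probe set read 7.87 and 8.19 against 7.995 and 8.15. The intervals of EPHB3 and EPHB4 do not overlap, and the difference between them was not tested.

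EFNB2, which encodes ephrin-B2, the ligand of EPHB4 and of other class B receptors, has 2 probe sets that gave different results. By the brighter it was 12.15 and 12.18 without TGF-β1 and 12.76 and 12.81 with it. The replicates lay within 0.041 of each other and the change was 0.62 ± 0.096 on the log2 scale (SE, n = 2 per group, 95% interval 0.38 to 0.85, limma adjusted p = 0.0323). By the dimmer it was 11.07 and 11.12 without TGF-β1 and 11.65 and 10.80 with it, so that 1 TGF-β1 array lay above and the other below both untreated arrays. That probe set gave 0.13 ± 0.265 (95% interval -0.52 to 0.77), and the mean of both gave 0.37 (limma adjusted p = 0.263). Over all probe sets neither passed (limma adjusted p = 0.0648 and 0.933). The rise of EFNB2 therefore rests on 1 of its probe sets.

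EFNB1, which encodes ephrin-B1, was 7.08 and 7.07 without TGF-β1 and 7.55 and 7.41 with it. Both TGF-β1 arrays lay above the untreated ones, and the log2 fold change of 0.41 ± 0.104 (SE, n = 2 per group, 95% interval 0.15 to 0.66) did not pass (limma adjusted p = 0.106).

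Neither class A ligand gene passed. EFNA1, whose product ephrin-A1 is a ligand of EPHA2, was 8.98 and 8.96 without TGF-β1 and 8.97 and 9.18 with it, a log2 fold change of 0.11 (95% interval -0.16 to 0.38, limma adjusted p = 0.746). EFNA4 read 8.93 and 9.04 against 9.03 and 9.07, a log2 fold change of 0.06 (95% interval -0.18 to 0.31, limma adjusted p = 0.861). In both genes the arrays of the groups overlapped. The upper ends of these 95% intervals, 0.38 and 0.31, lie below the lower bound for EPHA2 (0.74). The difference between these genes and EPHA2 was not tested.

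**Figure D2:**
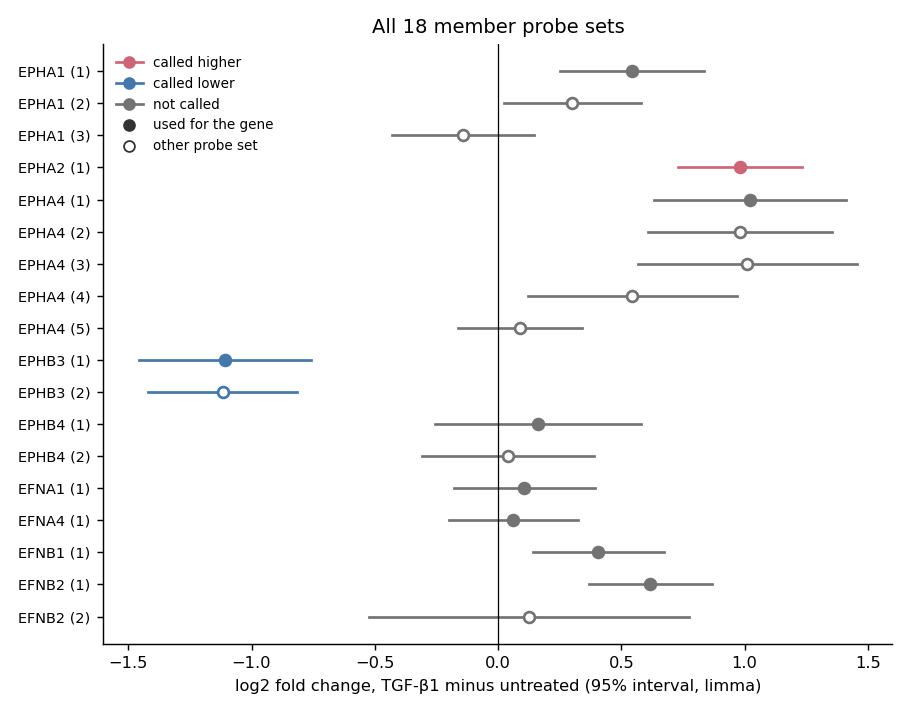
Log2 fold change of each of the 18 probe sets (horizontal axis, TGF-β1 minus untreated) with its 95% limma interval. Red and blue mark probe sets that passed over all probe sets, 1 higher and 2 lower, and filled points mark the probe set used for the gene. Both EPHB3 probe sets lie near -1.1, 3 of the 5 EPHA4 probe sets lie near 1, and the 2 EFNB2 probe sets lie apart.

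At the level of single probe sets, 3 of 18 passed limma's adjusted threshold against 0.954% of all 54613, namely that of EPHA2 upward (against 0.650% of all) and both of EPHB3 downward (against 0.304%). At an unadjusted p under 0.05, 11 of 18 passed against 13.2%, 9 of them higher and 2 lower. Probe sets of 1 gene read the same transcripts and are not separate replicates. In 12 of 18 the groups did not overlap, against 40.8% of all probe sets. The design text of the study defines its TGF-β response signature by at least 2-fold higher expression and a limma p under 0.05 without adjustment. By that rule EPHA4 was the 1 member that qualified, against 1.02% of all genes, and EPHA2 at 1.97-fold fell just short of it. EPHA4 did not qualify with arrays centred on their medians or with the mean of its probe sets, which gave a log2 fold change of 0.73. The same rule turned downward took EPHB3, against 0.369% of all genes.

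No fold change of these 9 genes turned its sign under either way of centring the arrays. Centring on 6 housekeeping genes raised the fold changes by 0.067 and moved the share of higher genes among all called ones from 55.9% to 71.2%, with EPHA1 called in addition. With 1 array left out, the 4 called genes kept their direction, and EPHA2 and EFNB2 also kept nearly their size. Only 1 residual degree of freedom then remains, and few genes pass at all. EPHA2 ranged from 0.96 to 1.01 (limma adjusted p = 0.0640 to 0.0806), EPHA4 from 0.85 to 1.20 (0.0673 to 0.159), EFNB2 from 0.60 to 0.64 (0.141 to 0.193) and EPHB3 from -1.28 to -0.94 (0.0435 to 0.133). Of these, EPHB3 passed without TGF-β1 replicate 2, and no other gene of the 4 passed in any of the 4 such fits.

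**Figure D3:**
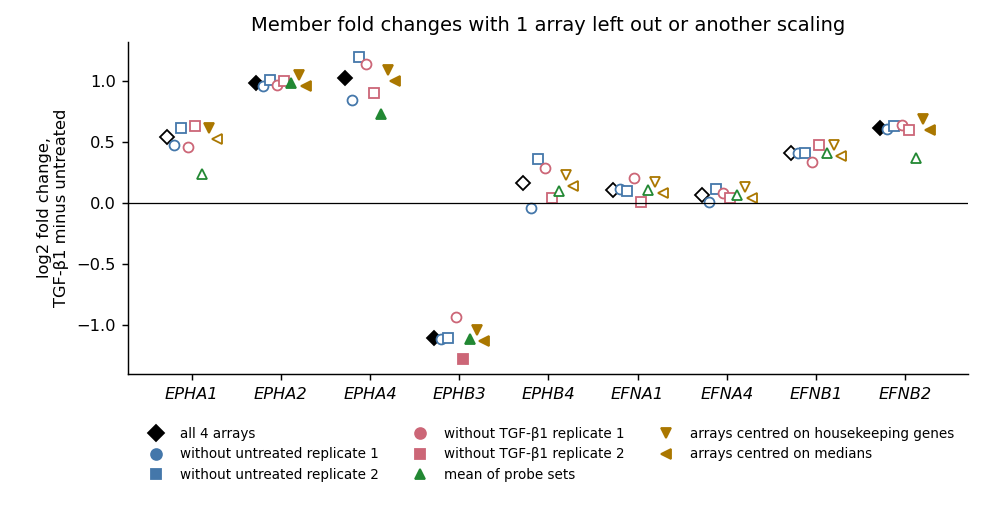
Log2 fold change (vertical axis) of each gene with all 4 arrays, with each array left out, with the mean of its probe sets and with 2 other scalings, where filled markers have a limma adjusted p under 0.05. EPHA2 stays between 0.96 and 1.05 and EPHB3 between -1.28 and -0.94 over these settings, while EFNB2 drops to 0.37 with the mean of its probe sets and EPHB4 crosses 0 without untreated replicate 1.

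The rest of the family was measured too. Of the 12 other Eph and ephrin genes, 0 passed limma's adjusted threshold and 2 had an unadjusted p under 0.05, which at 16.7% is the same share as over all genes. The median log2 fold change was 0.05. The 2 genes were EFNA2 and EPHB6. EFNA2 was 5.69 and 6.64 without TGF-β1 and 6.81 and 7.01 with it, a log2 fold change of 0.75 (95% interval 0.04 to 1.46, limma adjusted p = 0.274), and its 2 other probe sets gave -0.03 and 0.10. EPHB6, a family member without kinase activity, read 8.57 and 9.18 against 9.32 and 9.75, a log2 fold change of 0.66 (95% interval 0.09 to 1.23, limma adjusted p = 0.229). In both, the replicates of a group differed by up to 0.94 and 0.62. Of these 12 genes, 3 had a mean log2 value under 5.

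Adaptors, kinases, exchange factors and other proteins that act with Eph receptors were read as a list. Of 58 measured of 65 listed, 2 rose, 0 fell and 56 did not pass, that is 3.45% against 3.34% of all genes, with a median log2 fold change of 0.08. The 2 that rose were CLDN4, which encodes claudin 4, a tight junction protein that EPHA2 phosphorylates (1.90-fold, from 9.53 and 9.74 to 10.47 and 10.63), and CBL, a ubiquitin ligase that acts on EPHA2 (1.45-fold, from 9.85 and 9.82 to 10.33 and 10.42). Their limma adjusted p-values were 0.0198 and 0.0467. With arrays centred on their medians 1 of the list rose, and with arrays centred on housekeeping genes 5 did. At an unadjusted p under 0.05, 14 were higher and 4 lower, together 31% against 16.7% of all genes in either direction. Of all genes 1617 were higher and 1688 lower at that threshold. Of the 58 genes of the list, 53 had a mean log2 value of 7 or more, as did 11342 of all 19775 genes. The shares were not matched for level, so whether the list differs from genes as bright was not tested.

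EPHB3 also belongs to a list of Wnt target and stem cell genes of the crypt, of which 5 of 23 measured fell, against 1.47% of all genes, and 2 rose, against 1.87%. This list too was chosen with earlier results of these data known, and 20 of the 23 had a mean log2 value of 7 or more. Besides EPHB3 those that fell were MYC, CDCA7, LGR5 and ASCL2, and those that rose were NKD1 and DKK1, at log2 fold changes of 1.40 and 1.11. At an unadjusted limma p under 0.05, 8 of the list were lower and 4 higher, together 52.2% against 16.7% of all genes. Those higher included AXIN2 (0.61) and SOX9 (0.24), which did not pass the adjusted threshold. EPHB3 is named as a member and ASCL2 because its values were most like those of EPHB3. The others are named after their values were seen. The list median was -0.13. Over the 4 arrays, the gene whose values were most like those of EPHB3 was ASCL2, a transcription factor gene of intestinal stem cells. Its centred values differed from those of EPHB3 by 0.036 (root mean square, log2), the least among 11341 genes with a mean log2 value of 7 or more, followed by CXCL3 (0.068) and SP8 (0.069). EPHA2 was most like TNFRSF21 (0.036), LIPG (0.045) and CAPRIN2 (0.046). EPHA4 was most like LINC00623 (0.055), TRIM16 (0.064) and TP53INP2 (0.068), and EFNB2 most like ATOSA (0.0094), SFN (0.012) and MOB3A (0.024). This likeness rests on 4 arrays only.

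**Figure D4:**
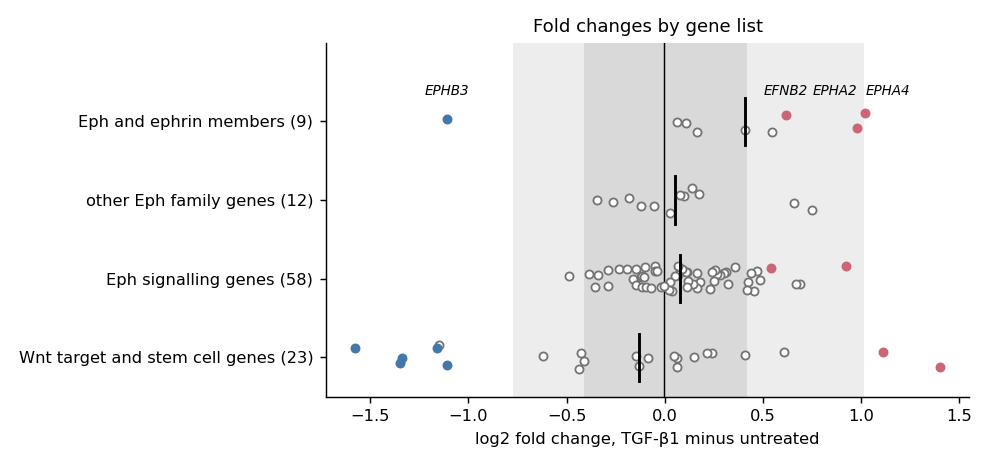
Log2 fold change (horizontal axis) of each gene of 4 lists, with red for genes called higher, blue for genes called lower, open points for the rest and a thick bar at each list's median. Shading spans the 5th to 95th (dark) and 1st to 99th (light) percentile of all genes, -0.41 to 0.41 and -0.77 to 1.01, and the vertical line is the median of all genes. EPHB3 lies below the 1st percentile, EPHA4 lies just above the 99th and EPHA2 just inside it.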

How the data were processed

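Total RNA of 4 LSTGFBR2 samples was hybridised as biotin-labelled cRNA to 1-colour HG-U133 Plus 2.0 arrays, and each sample's group and replicate number came from its title. The deposited values are log2 values per probe set. The authors used RMA, per the series' design text (background correction, quantile normalization and summarization). The submitters' processing notes name it too, with no version. Their log2 scale was judged from the range (2.48 to 15.34). Quantile normalization hides a shift of most genes in 1 direction.

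Gene symbols came from the platform annotation and were updated through the Entrez ID for 41037 of 41091 probe sets with 1 symbol. For a gene with several probe sets the brightest on average over the arrays stood for it, giving 19775 genes. limma 3.58.1 in R 4.3.3 (lmFit, eBayes without trend, two-sided, no covariate, no filter) was fitted to all genes, with Benjamini-Hochberg adjustment over all of them, and again to all 54613 probe sets other than 62 array controls. The total degrees of freedom were 6.13 and 5.97. The fit was tested on simulated independent normal values with spreads drawn from limma's own fit, which cannot check array or replicate effects. An exact permutation test of 2 against 2 arrays cannot go below 0.333, so none was used. Nothing says that replicates came from separate cultures, so p-values rest on the spread of these arrays alone, possibly technical, and their number limits the precision.

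The members and lists were chosen with earlier results of these data known. Named are all members and their probe sets, other family genes called or else the 2 with the largest change, up to 4 called signalling genes, and for each called member the 3 genes with the most similar values. Alternatives were a minimum mean of 5 or 7, an intensity trend, centring on medians or on 6 of 8 listed housekeeping genes that were measured, the mean of a gene's probe sets, a replicate block, each array left out and unadjusted p-values. Upstream sequences are RefSeq's (GRCh38.p14), matched by symbol for all 10 genes.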

Additional observations from a re-analysis of the deposited data

How the results depend on the processing

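Of the 9 genes, 3 were called higher and 1 lower. The count of higher genes was 1 with the fit over all probe sets and 5 at an unadjusted p, and ranged from 0 to 0 over the fits with 1 array left out, where that of lower genes ranged from 0 to 1. Over probe sets, 1 was called higher and 2 lower. The higher count was 4 with a minimum mean of 7, 4 with an intensity trend, 3 with arrays centred on medians, 5 with arrays centred on housekeeping genes and 9 at an unadjusted p. With the replicate block 0 probe sets were called higher and 0 lower (limma adjusted p = 0.0712 for EPHA2, 0.0817 and 0.0663 for EPHB3), and with 1 array left out 0 in both directions. By the study's signature rule 1 member was higher and 1 lower. The higher count was 0 with arrays centred on medians, 2 with arrays centred on housekeeping genes, 0 with the mean of probe sets and 0 to 2 with 1 array left out, and the lower count 0 to 1. Of the signalling list 2 rose, against 4 with a minimum mean of 7, 1 with median centring, 5 with housekeeping centring and 0 with 1 array left out. Of the Wnt list, 0 to 1 rose and 1 to 5 fell with 1 array left out. Over all genes, 64 to 85 were higher and 6 to 21 lower with 1 array left out, and 443 were lower with a minimum mean of 7 in place of 291.

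The replicate numbers are shared by the groups, and deviations from the group means correlated at 0.364 between arrays of the same number, but with 2 pairs and no label that says so they are not taken as paired. With the replicate block the count over all genes was 561, of which 441 were in the 660, and of the members 2 were called higher and 1 lower, EFNB2 being lost (limma adjusted p = 0.0501). The signs that turned were of values not called. By its brighter probe set EPHB4 ranged from -0.0385 (without untreated replicate 1) to 0.36 with 1 array left out. Its dimmer probe set ranged from -0.12 to 0.20 with 1 array left out, below 0 in the fits that left out untreated replicate 1 or TGF-β1 replicate 2, and the dimmer EFNB2 probe set ranged from -0.30 (without TGF-β1 replicate 1) to 0.55. RMA gives no detection call, so whether dim probe sets lay above background is not known.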

Other observations

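Antisense transcripts of 2 receptor genes also have probe sets, which were chosen after their values were seen. EPHA1-AS1 was 5.98 and 6.06 without TGF-β1 and 6.40 and 6.37 with it by its brighter probe set, a log2 fold change of 0.37 that did not pass over all probe sets (limma adjusted p = 0.206). Its dimmer probe set read 2.93 to 3.09 in the 4 arrays. EPHA2-AS1 was 5.53 and 5.47 without TGF-β1 and 5.38 and 5.34 with it, a log2 fold change of -0.14 that did not pass either (limma adjusted p = 0.690), while EPHA2 itself rose.

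EFNA5, a class A ligand gene outside the members and likewise chosen after its values were seen, was lower by 3 of its 4 probe sets without overlap of the groups, which 40.8% of all probe sets show in either direction, and none passed. The brightest was 7.82 and 8.07 without TGF-β1 and 7.40 and 7.80 with it. The second read 6.83 and 7.08 against 6.41 and 6.48, and the third read 6.37 and 6.40 against 5.93 and 5.96. Their limma adjusted p-values over all probe sets were 0.481, 0.155 and 0.137. The fourth read 5.22 and 5.77 against 5.47 and 5.26, with overlap.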
